A study of Mus musculus with 4 samples.

Results

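The genes described here are 48 regulators and components of the cell cycle, out of 35689 genes in the deposited table: the cyclins, cyclin-dependent kinases (CDKs), their inhibitors, the retinoblastoma pocket proteins, the E2F and Myc transcription factors, and genes of DNA replication and mitosis. They were chosen by gene symbol and split into 26 genes of G1 and S-phase entry, 11 of replication and 11 of G2 and mitosis. The tissue was the forelimb bud pair of single mouse embryos at E11.5. The 2 conditional knockout embryos were PrxCre/+;Smarcc1c/c, and the 2 controls were Prx+/+;Smarcc1c/c, so both genotypes carried the conditional Smarcc1 allele and differed in Cre. PrxCre drives recombination in limb bud mesenchyme, and ectoderm, blood, vessels and immigrant cells of the whole bud lie outside that lineage. In either genotype, replicate 1 was staged at 40 somites and replicate 2 at 39. BAF155, the product of Smarcc1, belongs to the core of BAF, a SWI/SNF-type remodeller of chromatin.

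D-type cyclins bind CDK4 and CDK6 and, with cyclin E and CDK2, phosphorylate the pocket proteins, which frees E2F factors to switch on replication genes. The INK4 inhibitors (encoded by the Cdkn2 genes) block CDK4 and CDK6, and p27 (Cdkn1b) and p57 (Cdkn1c) block several cyclin-CDK pairs. Genes of G2 and mitosis are repressed in resting cells by the DREAM complex, which binds a CHR element in their promoters, and are activated through CCAAT boxes bound by NF-Y. In the early limb bud most mesenchymal progenitors are cycling, and Mycn is a known growth regulator of that mesenchyme.

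Values are TPM, which corrects for the length of a transcript and sets each library to a common total, and fold changes are knockout minus control on the log2(TPM + 1) scale, which understates changes of genes with low TPM. The level of Smarcc1 was 46.2 and 38.4 TPM in knockout buds, against 112 and 119.6 TPM in the controls (log2 fold change -1.44 ± 0.13, SE; n = 2 embryos of each genotype; adjusted p = 0.0117 by limma with Benjamini-Hochberg adjustment). Tbx5, the forelimb T-box gene, stood at 31.9 and 40.2 TPM in knockout buds and 32.1 and 43.1 TPM in control buds. Tbx4, its hindlimb counterpart, stood at 15.5 and 19.3 TPM in knockout buds, against 4.52 and 6.07 TPM in control buds, without overlap. In the same order, 10 limb mesenchyme markers summed to 687.9 and 773.8 TPM against 827.1 and 1025 TPM, with 2 of the 10 called lower. Of all genes tested, 0.492% were called lower. Without overlap, 6 of the 10 were lower and 1, Twist1, was higher (163.0 and 197.8 against 129.0 and 150.9 TPM). The summed level of 12 surface ectoderm markers was 543.7 and 354.6 TPM in knockout buds, against 740.7 and 507.8 TPM in control buds, with all 12 fold changes below 0 and 1 called lower. Summed endothelial, erythroid and macrophage markers were 86.1 to 121.1, 12000 to 12610 and 14.96 to 17.4 TPM in knockout buds, against 73.5 to 125.8, 9938 to 11330 and 18.8 to 26.0 TPM in control buds. Myoblast and neuron or Schwann cell markers summed to 43.9 and 47.0, and 20.7 and 18.3 TPM, in knockout buds, against 38.1 and 28.7, and 23.8 and 22.8 TPM, in control buds. No marker of these 7 lists was at 0 in every library. The part of such cells in the cell cycle values was not tested, and in whole buds fewer cells of a type and less RNA per cell cannot be told apart.

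Promoter sequences are shown for 7 members because they hold, or lack, the letters through which this gene set is usually read. RefSeq windows (GRCm38.p6, the same build as mm10) were available for 38 of the 48 genes, and the 250 bases before each start were searched on both strands for TTTNNCGC (E2F-like), TTTGAA (CHR) and CCAAT. Below, the stretch just before the start is given for each gene in its own orientation, 5′ to 3′, with every match of either strand in capitals. A match is only a match of letters.
Cdkn2c, chr4:109666757-109666876, minus strand: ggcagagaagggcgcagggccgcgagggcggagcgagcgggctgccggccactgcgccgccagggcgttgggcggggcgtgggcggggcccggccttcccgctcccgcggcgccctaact
Mycn, chr12:12941837-12942026, minus strand: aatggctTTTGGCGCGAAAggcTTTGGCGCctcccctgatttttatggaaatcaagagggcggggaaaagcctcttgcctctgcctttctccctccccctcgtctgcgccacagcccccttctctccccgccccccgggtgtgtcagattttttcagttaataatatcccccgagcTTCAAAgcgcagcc
Mcm5, chr8:75109349-75109508, plus strand: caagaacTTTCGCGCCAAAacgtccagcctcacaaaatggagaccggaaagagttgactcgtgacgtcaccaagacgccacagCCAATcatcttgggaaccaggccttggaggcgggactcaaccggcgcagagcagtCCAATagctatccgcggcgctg
Mcm6, chr1:128359706-128359820, minus strand: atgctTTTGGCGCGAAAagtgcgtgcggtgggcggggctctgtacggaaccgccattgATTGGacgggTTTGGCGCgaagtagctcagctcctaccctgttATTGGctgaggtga
Cdk1, chr10:69352913-69353052, minus strand: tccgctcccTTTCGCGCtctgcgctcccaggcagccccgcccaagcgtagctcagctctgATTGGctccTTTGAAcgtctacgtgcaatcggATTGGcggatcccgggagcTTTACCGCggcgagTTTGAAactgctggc
Ccnb2, chr9:70421555-70421654, minus strand: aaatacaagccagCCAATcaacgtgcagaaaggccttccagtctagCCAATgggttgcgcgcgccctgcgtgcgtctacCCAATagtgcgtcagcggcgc
Cdc20, chr4:118437344-118437403, minus strand: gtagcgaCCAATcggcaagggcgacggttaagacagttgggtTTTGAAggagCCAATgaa
Of the 7 printed windows, 6 begin at the start of the RefSeq gene. Cdkn2c is shown because it had the largest fold change of the set, and its stretch holds 0 matches. That stretch precedes a RefSeq start inside the gene bounds given below, so bases before the outermost GENCODE start were not searched. The other RefSeq window of Cdkn2c, not printed, also holds 0 matches. For Cdc6, Cdk6, E2f1 and Mcm7 too, all searched bases lie inside the GENCODE bounds of the gene. The last bases of the printed Mycn, Cdk1 and Cdc20 stretches also lie inside such bounds. These bases hold 1 CHR match in Mycn, 1 CHR match in Cdk1 and 1 CCAAT match in Cdc20. Mycn, the member with the largest negative fold, holds 3 E2F-like matches, of which a pair on opposite strands overlaps, and 1 CHR match on the opposite strand. Mcm5 and Mcm6 also carry an overlapping pair on opposite strands, together with 2 CCAAT matches each. In the printed stretches, Cdk1 joins 2 E2F-like, 2 CHR and 2 CCAAT matches, Ccnb2 has 3 CCAAT matches in a row, and Cdc20 has 1 CHR match between 2 CCAAT matches. Farther upstream within the searched bases, not printed, Cdk1 holds 1 more CCAAT match and Ccnb2 holds 1 CHR match.

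Across the set, a CCAAT match was present in all 9 mitosis genes with a window (100%), in 8 of 10 replication genes (80%) and in 8 of 19 G1 genes (42.1%), against 37.5% of the 27025 genes of the promoter table. A CHR match was present in 5 of 9 mitosis genes (55.6%), 1 of 10 replication genes (10%) and 6 of 19 G1 genes (31.6%), against 18.3% of all genes. An E2F-like match was present in 1 of 9 mitosis genes (11.1%), 4 of 10 replication genes (40%) and 7 of 19 G1 genes (36.8%), against 4.94% of all genes. The mitosis genes thus held the highest shares of CCAAT and CHR matches, and the G1 and replication genes the higher shares of E2F-like matches; these shares describe the letters of the windows and were not tested.

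**Figure D1:**
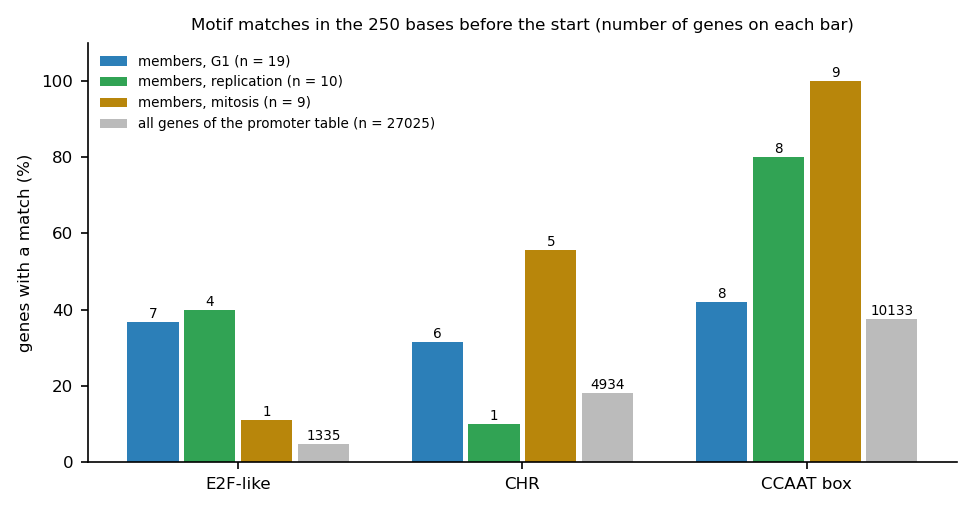
Percent of genes with a match to each motif in the 250 bases before the start (y axis), for G1, replication and mitosis members and for all genes of the promoter table, with the number of genes on each bar. All 9 mitosis genes hold a CCAAT match, against 37.5% of all genes.

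Of the 48 genes, 46 reached a TPM of 1 in at least 2 libraries and were tested, and 0 rose and 0 fell (limma with Benjamini-Hochberg adjustment over 12809 genes at 0.05, n = 2 per genotype). Among all genes tested the called share was 1.3%, with 0.812% on the higher and 0.492% on the lower side. The unadjusted p was under 0.05 for 4 members, 3 higher (Cdkn2c, Ccnd2 and Myc) and 1 lower (Mycn), or 8.70%, against 13.7% of all genes tested. The 46 fold changes ran from -0.50 to 1.07 with a median of 0.05, beside a median of 0.01 over all genes tested. Their 95% intervals lay within 2-fold in either direction for 45 of 46 genes, Cdkn2c being the exception, and for 91.0% of all genes tested.

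With somite stage added to the model, Cdkn2c and Ccnd2 rose (2 of 46), and 0 members fell. Of all genes 4.16% were then called, 2.08% in each direction. In that fit the spread of a gene is only the disagreement between the 2 stage-matched pairs of embryos, moderated over all genes. Both knockout libraries lay above both controls in 12 of 46 members, and below both in 5, against 22.7% and 21.2% of all genes tested. These shares of members, 26.1% and 10.9%, lie near the first of these and below the second.

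**Figure D2:**
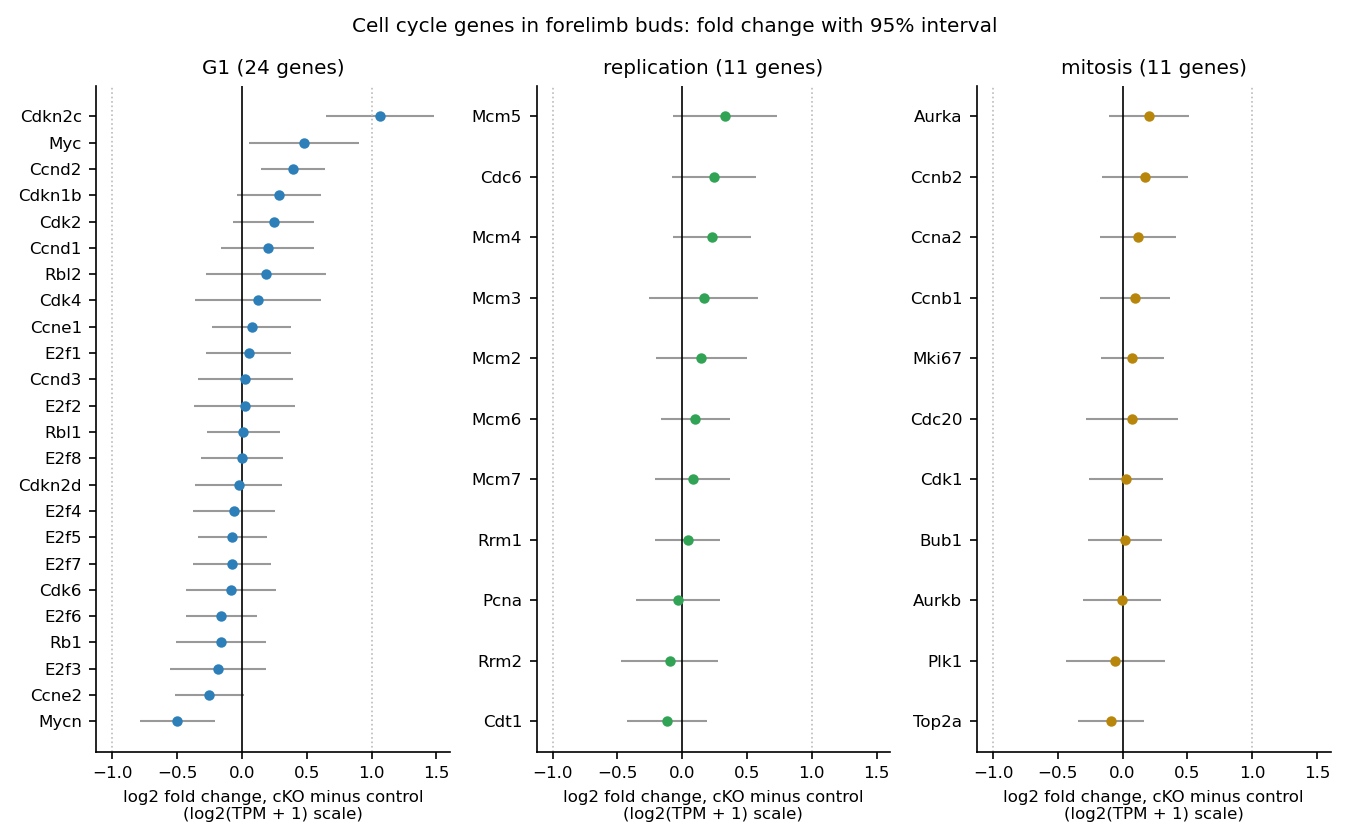
Fold change of each tested member on the log2(TPM + 1) scale, knockout (cKO) minus control, with its 95% interval from limma (x axis), in panels for G1, replication and mitosis genes; dotted lines mark 2-fold. Replication and mitosis genes all lie within 2-fold with their intervals, and Cdkn2c stands farthest from 0.

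Cdkn2c, which encodes the INK4 inhibitor p18, had 3.71 and 3.66 TPM in knockout buds, against 1.46 and 1.04 TPM in control buds. The groups did not overlap, and the knockout libraries were close to each other. The ratio of the mean TPM was 2.95 and the log2 fold change 1.07 ± 0.17 (SE, 95% interval 0.65 to 1.48; limma, Benjamini-Hochberg adjusted p = 0.0519, and 0.0358 with somite stage in the model). Its level was low, at percentile 12.5 of the tested genes, and the read depth behind it is unknown. With 1 library left out, 1 genotype holds a single embryo, assumed to vary like the pair of the other genotype. The spread there comes from that pair, moderated over all genes by limma, so such fits add no support for the difference. The gene (ENSMUSG00000028551, chromosome 4, 109660876 to 109667189 of mm10) shared 0% of its 31-base words with transcripts of any other gene.

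The other INK4 genes did not separate the genotypes. Cdkn2d, encoding p19, stood at 16.7 and 19.0 TPM in knockout buds, against 16.8 and 19.6 TPM in control buds, and its interval ran from -0.36 to 0.31. Cdkn2b, encoding p15, was listed at 0.647 and 0.212 TPM in knockout buds, against 0.343 and 0.335 TPM in control buds. Cdkn2a, the locus of p16 and p19Arf, was listed at 0 and 0.0537 TPM in knockout buds, against 0.0510 and 0 TPM in control buds. Cdkn2a and Cdkn2b, both known Polycomb targets, were too low to test in either genotype. Cdkn2c made up 17.6% and 16.0% of the summed INK4 TPM in knockout buds, against 7.81% and 4.94% in control buds, while that sum was 21.1 and 23.0 TPM against 18.7 and 21.0 TPM. The INK4 sums were only just separated between genotypes, and all were small beside Cdk4, the kinase these proteins bind, which stood at 1355 and 1619 TPM in knockout buds and 1151 and 1605 TPM in control buds.

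The CIP/KIP inhibitors of CDKs did not share 1 direction. Cdkn1b, encoding p27, stood at 29.1 and 35.3 TPM in knockout buds, against 25.5 and 26.7 TPM in control buds, without overlap (0.29 ± 0.13; not past the threshold, limma, Benjamini-Hochberg adjusted p = 0.430). Cdkn1a, encoding p21 and no member of the set, overlapped at 23.6 and 21.7 TPM in knockout buds and 26.99 and 22.99 TPM in control buds (log2 fold change -0.13). Cdkn1c, encoding p57, imprinted in mouse and also no member, was the most abundant of these inhibitors, at 142.5 and 162.4 TPM in knockout buds, against 232 and 236.2 TPM in control buds. It passed with somite stage in the model (log2 fold change -0.62 ± 0.11; limma, Benjamini-Hochberg adjusted p = 0.0794, and 0.0283 with stage). With 1 library left out, 1 genotype again held a single embryo, so those fits add no support for the lower level of Cdkn1c.

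Among D-type cyclins, Ccnd2 was the one whose groups did not overlap, and the cyclins were not tested against each other. It had 156.4 and 159.9 TPM in knockout buds, against 117.8 and 122.2 TPM in control buds, with each pair of replicates close together and no overlap. The ratio of the means was 1.32 and the log2 fold change 0.40 ± 0.10 (SE, 95% interval 0.15 to 0.64; limma, Benjamini-Hochberg adjusted p = 0.163, and 0.0486 with somite stage in the model). Without any 1 library, and without stage, limma's adjusted p for Ccnd2 lay between 0.235 and 0.590. Ccnd1 stood at 148.2 and 172.9 TPM in knockout buds, against 125.1 and 155.3 TPM in control buds, and Ccnd3 at 159.4 and 171.1 TPM against 142 and 185.6 TPM. Both overlapped between genotypes, with 95% intervals of -0.16 to 0.56 for Ccnd1 and -0.34 to 0.39 for Ccnd3.

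All 3 D-type cyclins were expressed at similar TPM, and their sum was 464 and 503.9 TPM in knockout buds, against 385 and 463 TPM in control buds. Ccnd2 took 33.7% and 31.7% of their summed TPM in knockout buds, against 30.6% and 26.4% in control buds, a mean difference of 4.22 percentage points, which was 2.11 points without control replicate 2 and 6.32 points without control replicate 1. Ccnd3 took 34.4% and 34.0% in knockout buds, against 36.9% and 40.1% in control buds, and the share of Ccnd1 overlapped (31.9% and 34.3% against 32.5% and 33.5%). The shares were not tested; an exact permutation of 2 and 2 libraries can give no two-sided p below 0.333. Ccnd2 (chromosome 6, 127125162 to 127152193 of mm10) is also a Hedgehog target gene.

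Of the E-type cyclins, which partner CDK2 at the start of S phase, Ccne2 stood at 48.4 and 49.9 TPM in knockout buds, against 61.5 and 56.0 TPM in control buds, without overlap (-0.25 ± 0.11; limma, Benjamini-Hochberg adjusted p = 0.394). Ccne1 overlapped, at 66.0 and 73.7 TPM in knockout buds and 61.3 and 71.2 TPM in control buds. Their sum was 114.4 and 123.5 TPM against 122.8 and 127.2 TPM, so the summed levels overlapped. Cdk2 stood at 109.5 and 127.9 TPM in knockout buds, against 93.6 and 106.2 TPM in control buds, and Cdk6 at 9.09 and 9.40 against 8.98 and 10.8 TPM. Neither passed (limma, Benjamini-Hochberg adjusted p = 0.485 and 0.873), and Cdk4 exceeded Cdk6 by far in every library.

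**Figure D3:**
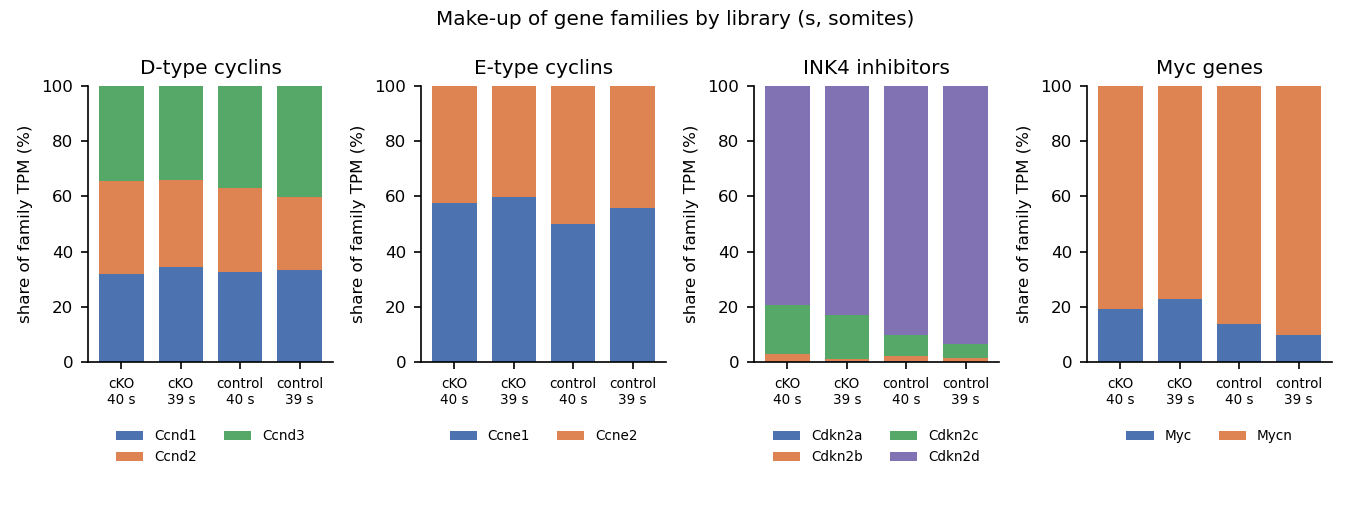
Share of each gene in the summed TPM of its family (y axis, percent) in every library, for D-type cyclins, E-type cyclins, INK4 inhibitors and Myc genes; s is somites. Cdkn2c, Myc, Ccnd2 and Ccne1 take larger shares in both knockout (cKO) libraries than in both control libraries.

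The Myc genes, whose proteins drive growth and G1 progression, lay on opposite sides. Mycn stood at 48.7 and 48.3 TPM in knockout buds, against 63.8 and 74.5 TPM in control buds, without overlap. Its mean ratio was 0.702 and its log2 fold change -0.50 ± 0.12 (SE, 95% interval -0.79 to -0.21; limma, Benjamini-Hochberg adjusted p = 0.143, and 0.0529 with somite stage in the model). Myc stood at 11.7 and 14.4 TPM in knockout buds, against 10.3 and 7.98 TPM in control buds, and its log2 fold change was 0.48 ± 0.17 (limma, Benjamini-Hochberg adjusted p = 0.302). Mycn was the more abundant of the pair throughout: its share of their summed TPM was 80.6% and 77.0% in knockout buds, against 86.1% and 90.3% in control buds. That sum was 60.5 and 62.7 TPM in knockout buds, below the 74.0 and 82.5 TPM of control buds. The fold of Myc depends on single libraries, being 0.34 and 0.32 without knockout replicate 2 or control replicate 2, and 0.62 and 0.64 without knockout replicate 1 or control replicate 1.

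**Figure D4:**
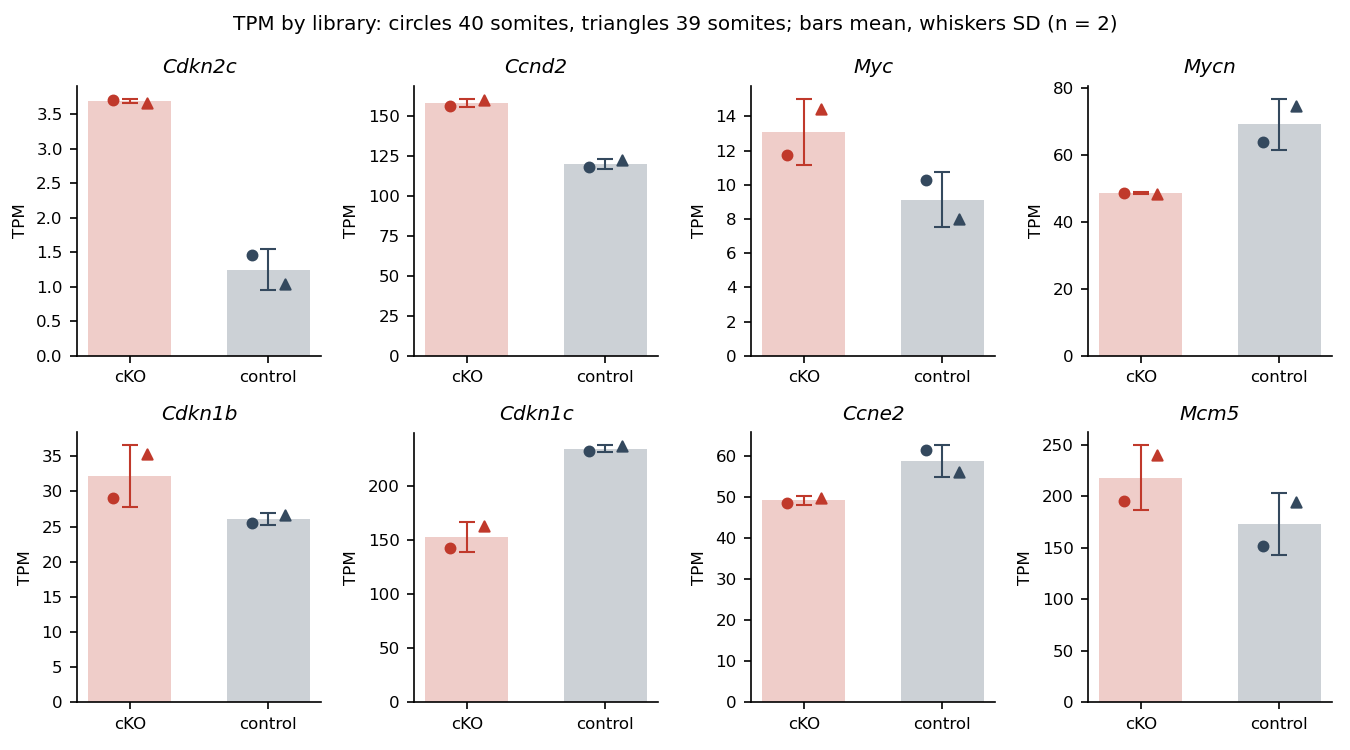
TPM (y axis) of 7 members and Cdkn1c in knockout (cKO) and control libraries; circles are embryos with 40 somites, triangles those with 39, bars are means and whiskers SD (n = 2). In Cdkn2c, Ccnd2, Mycn, Cdkn1c and Ccne2 the genotypes are separated by more than the gap between replicates.

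The pocket proteins showed no gene past the threshold. Rbl1, encoding p107, was the most abundant, at 18.7 and 17.8 TPM in knockout buds and 17.9 and 18.4 TPM in control buds. Rb1 stood at 6.78 and 6.52 TPM in knockout buds, against 8.14 and 7.01 TPM in control buds, and Rbl2, encoding p130, at 3.85 and 3.69 against 2.61 and 3.87 TPM. The interval of Rbl1 ran from -0.27 to 0.29, that of Rb1 from -0.51 to 0.18 and that of Rbl2 from -0.28 to 0.65. Summed, the pocket proteins came to 29.4 and 28.0 TPM in knockout buds and 28.6 and 29.3 TPM in control buds.

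The 8 E2F genes had fold changes between -0.18 for E2f3 and 0.05 for E2f1, and E2f6, a repressor found with a variant Polycomb complex, was the one whose groups did not overlap (52.1 and 58.6 TPM in knockout buds, against 60.3 and 63.4 TPM in control buds). The activators E2f1, E2f2 and E2f3 summed to 45.3 and 52.3 TPM in knockout buds, against 46.5 and 56.1 TPM in control buds. The repressive E2f4 to E2f8 summed to 175.5 and 194.6 TPM against 190.1 and 205.4 TPM. E2f5 was the most abundant of the family, at 60.9 and 66.8 TPM in knockout buds and 65.5 and 69.0 TPM in control buds; its exons overlap those of 1810022K09Rik on the other strand, which stood at 379.7 and 374.0 against 487.7 and 296.8 TPM. E2f8, an atypical repressor induced in S phase, stood at 8.61 and 8.63 TPM against 8.30 and 8.93 TPM, with an interval of -0.31 to 0.32. The intervals of all 8 lay within 2-fold in either direction.

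Of the 11 replication genes, 0 passed with or without somite stage, 8 had positive and 3 negative fold changes (72.7% positive, against 51.8% of all genes tested), and their median was 0.10 beside 0.01 for all genes tested. With 1 library left out, stage is unbalanced and that median varied. It was 0.0050 without control replicate 1 and 0.029 without knockout replicate 2. It was 0.176 without knockout replicate 1 and 0.157 without control replicate 2. Within stages it was 0.09 at 40 somites and 0.10 at 39 somites, with 1 embryo of each genotype at each stage. In 5 of the 11 (Mcm4, Mcm5, Mcm6, Cdc6 and Rrm1; 45.5%, against 22.7% of all genes tested) both knockout libraries exceeded both controls. Mcm5, a subunit of the replicative helicase, stood at 195.7 and 240.2 TPM in knockout buds, against 152.1 and 194.4 TPM in control buds. The groups were nearly touching, and the embryo with 39 somites was the higher one in each genotype (0.33 ± 0.16; limma, Benjamini-Hochberg adjusted p = 0.459, and 0.0699 with stage). Its fold was 0.19 and 0.16 without knockout replicate 2 or control replicate 1, and 0.48 and 0.51 without knockout replicate 1 or control replicate 2. Within stages the fold of Mcm5 was 0.36 at 40 somites and 0.30 at 39 somites. Mcm4 stood at 131.9 and 149.4 TPM against 111.5 and 128 TPM, and the helicase loader Cdc6 at 53.0 and 57.7 TPM against 42.3 and 51.3 TPM. Mcm2 overlapped, at 120.1 and 141.7 TPM in knockout buds and 106.6 and 130 TPM in control buds.

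Summed over its 6 subunits, the MCM helicase came to 1141 and 1314 TPM in knockout buds, against 1006 and 1186 TPM in control buds, which overlapped. Of that sum Mcm5 made up 17.2% and 18.3% in knockout buds, against 15.1% and 16.4% in control buds, a mean difference of 1.97 percentage points without overlap. Mcm4 was also separated, at 11.6% and 11.4% against 11.1% and 10.8%, and Mcm7 was just separated on the lower side, at 31.55% and 29.97% against 33.53% and 31.66%. The shares of Mcm2, Mcm3 and Mcm6 overlapped, and no share was tested. Rrm1 and Rrm2 encode the ribonucleotide reductase subunits. Rrm1 stood at 241 and 242.8 TPM in knockout buds and 235.8 and 234.5 TPM in control buds, and Rrm2 at 253 and 309 TPM against 270.9 and 330.3 TPM. Cdt1, the licensing factor that works with Cdc6, overlapped at 34.4 and 35.9 TPM in knockout buds and 35.0 and 41.8 TPM in control buds.

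Pcna, the sliding clamp, is uncertain, because 23.3% of its 31-base words also occur in the processed pseudogene Pcna-ps2. Pcna stood at 535.5 and 641.9 TPM in knockout buds, against 603.4 and 596.9 TPM in control buds. Pcna-ps2 was listed at 57.9 and 1.10 TPM in knockout buds, against 68.3 and 72.9 TPM in control buds, so knockout replicate 2 stands apart from the other libraries. Added together they came to 593.4 and 643 TPM in knockout buds and 671.7 and 669.8 TPM in control buds, now without overlap, and the fold was -0.12, against -0.03 for Pcna alone, with limma's Benjamini-Hochberg adjusted p at 0.746. Ccnb1, Mcm7, Cdc20 and Plk1 also share 27.7%, 26.8%, 25.5% and 14.8% of their words with other genes, but for these the gene sharing most was listed below 0.4 TPM in all libraries.

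Of the 11 genes of G2 and mitosis, 0 passed with or without stage, and their fold changes ran from -0.09 for Top2a to 0.21 for Aurka, with a median of 0.07. The median was 0.015 without knockout replicate 2, 0.121 without knockout replicate 1, 0.0698 without control replicate 1 and 0.114 without control replicate 2. Mki67, the gene of the proliferation antigen Ki-67, stood at 87.6 and 87.8 TPM in knockout buds, against 83.0 and 83.4 TPM in control buds. These groups did not overlap, yet the log2 fold change was 0.07 with an interval of -0.17 to 0.32. Top2a, encoding topoisomerase II alpha, was on the other side, at 361.7 and 363.9 TPM in knockout buds against 383.8 and 389.1 TPM in control buds (-0.09, interval -0.35 to 0.17). Aurka, a spindle pole kinase, stood at 131.9 and 143.1 TPM in knockout buds and 109.1 and 129.9 TPM in control buds (0.21 ± 0.13; limma, Benjamini-Hochberg adjusted p = 0.566), and its fold was 0.081 without control replicate 1 and 0.33 without control replicate 2.

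The mitotic cyclins and their kinase overlapped between genotypes. Ccna2 stood at 172.8 and 193.8 TPM in knockout buds and 158.6 and 178.4 TPM in control buds, Ccnb2 at 108.7 and 130.4 TPM against 98.1 and 113 TPM, and Ccnb1 at 217.9 and 242.5 TPM against 212.4 and 218.8 TPM. Cdk1 stood at 518.7 and 503.6 TPM in knockout buds and 527.9 and 476.5 TPM in control buds, with an interval of -0.26 to 0.31. The checkpoint kinase Bub1, the Aurora kinase Aurkb, the Polo-like kinase Plk1 and the APC/C activator Cdc20 had fold changes of 0.02, 0.00, -0.06 and 0.07. Their intervals, of which that of Plk1 (-0.43 to 0.32) was the widest downward, all lay within 2-fold.

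Cell cycle genes outside the set gave a similar count. Of 126 further genes of G1 control, replication and mitosis, all tested, 0 passed, with 9 at an unadjusted p under 0.05 in limma (7.14%, against 13.7% of all genes), 6 higher and 3 lower. With somite stage 2 of the 126 passed, Cdkn1c lower and Pold2 higher, where 4.16% of all genes were called. Pold2, a subunit of DNA polymerase delta, stood at 88.7 and 114.7 TPM in knockout buds, against 61.4 and 84.0 TPM in control buds (0.48 ± 0.19; limma, Benjamini-Hochberg adjusted p = 0.348, and 0.0369 with stage). Its fold was 0.30 without knockout replicate 2 and 0.26 without control replicate 1. Without knockout replicate 1, which left a single knockout embryo, its fold was 0.67. Within stages the fold of Pold2 was 0.52 at 40 somites and 0.44 at 39 somites.

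By list, the medians were -0.02 over 28 further G1 genes, 0.07 over 52 replication genes and 0.06 over 46 mitosis genes. In G1, Ccnc, the cyclin of the Mediator kinase module, stood at 25.6 and 25.1 TPM in knockout buds, against 36.5 and 30.7 TPM in control buds, Ccng1, a p53 target, at 24.2 and 22.6 against 18.6 and 17.99 TPM, and Lin37, a DREAM subunit, at 38.4 and 36.8 against 23.2 and 32.6 TPM. In replication, Chaf1a, a chromatin assembly factor subunit, stood at 38.5 and 35.3 against 48.6 and 45.6 TPM, Orc1, of the origin recognition complex, at 26.1 and 26.9 against 19.8 and 23.2 TPM, and the kinase gene Cdc7 at 55.2 and 46.8 against 41.5 and 42.1 TPM. In mitosis, Sgo1, a protector of cohesin, stood at 35.9 and 37.3 against 28.8 and 27.5 TPM, the phosphatase gene Cdc25c at 64.8 and 68.8 against 48.8 and 55.9 TPM, Ckap2l at 73.7 and 69.8 against 57.1 and 59.3 TPM, and Spc24, of the kinetochore, at 142.3 and 129.6 against 122.8 and 103.1 TPM. None of these 10 passed in either model. The groups of each did not overlap, but the 10 were chosen by their small p. Among all 126 further genes, both knockout libraries lay above both controls in 27.8% and below both in 7.94%. The shares over all genes tested were 22.7% and 21.2%.

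Within each genotype the members also differed by somite stage. The embryo with 39 somites had the higher TPM in both genotypes for 35 of 46 members (76.1%), and the lower in both for 3, against 53.6% and 15.6% of all genes tested. The median difference, 39 minus 40 somites, was 0.18 for replication genes in knockout buds and 0.25 in control buds, and 0.15 and 0.17 for mitosis genes. Over all genes tested it was 0.08 in knockout buds and 0.12 in control buds. Mitochondrial transcripts took 10.1% and 7.58% of TPM in knockout buds at 40 and 39 somites, and 9.91% and 8.05% in control buds. With mitochondrial and globin genes taken out and the rest rescaled, 31 of 46 members (67.4%) were higher at 39 somites in both genotypes, against 46.4% of all genes. Embryo sex coincided with stage in these libraries (Ddx3y at 0.0498 and 28.3 TPM in knockout buds and 0.0130 and 30.2 TPM in control buds at 40 and 39 somites), so stage, sex and embryo cannot be told apart.

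Within each stage, the median knockout minus control difference was 0.09 at 40 somites and 0.10 at 39 somites for replication genes, and 0.06 and 0.08 for mitosis genes. For G1 genes it was 0.084 at 40 somites and -0.045 at 39 somites. Over all genes tested it also changed sign, at 0.026 and -0.0065 in the same order.

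**Figure D5:**
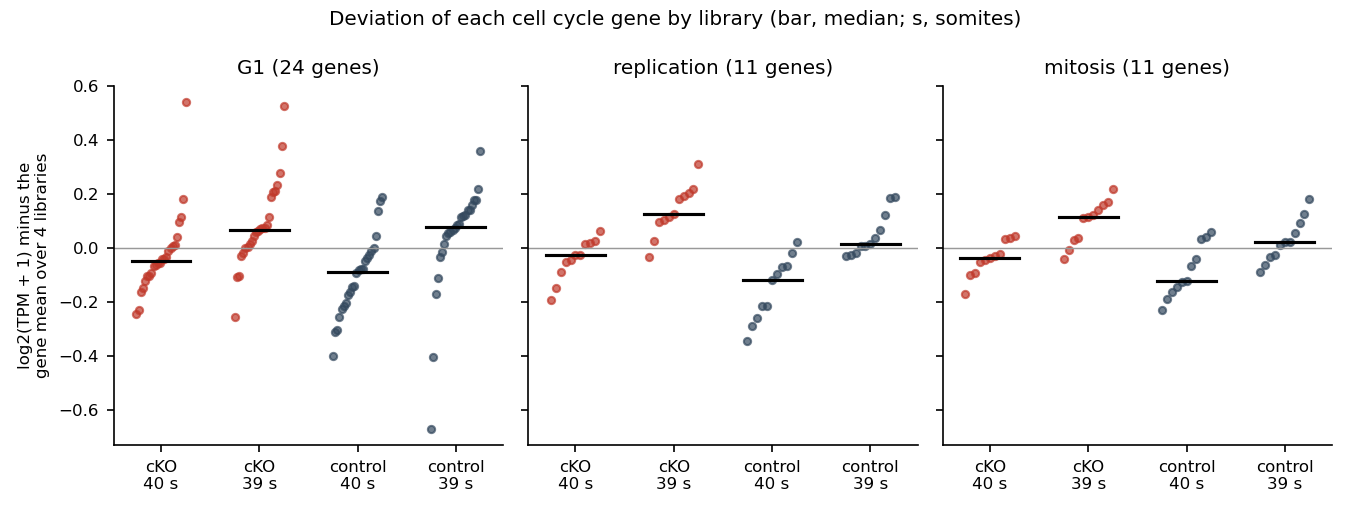
Deviation of each tested member from its own mean over 4 libraries (y axis, log2(TPM + 1) units) in every library, in panels for G1, replication and mitosis genes; black bars are medians and s is somites. In each genotype the median of every panel is higher at 39 than at 40 somites.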

How the data were processed

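RNA from the forelimb bud pair of each of 4 embryos (310 and 330 ng knockout, 340 and 580 ng control, RNA integrity number 10 for each, per the labels) was sequenced on a DNBseq platform. The authors deposited TPM values for 35727 Ensembl genes, each column summing to 1000000. Salmon 1.9.0 and mm10 are named in the submitters' processing notes; the sources used here do not give the transcript set or the settings. TPM keeps no depth, so no count test or counting interval was used, and the number of libraries limits the precision.

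Symbols were matched for 35422 identifiers (99.1%), and 38 repeated symbols were summed, which left 35689 genes. One column name carried a letter that its sample title lacked. The 12809 genes that reached 1 TPM in 2 or more libraries entered limma 3.58.1 (R 4.3.3) on the log2(TPM + 1) scale, with lmFit and eBayes with a trend and no covariates, and two-sided p-values had Benjamini-Hochberg adjustment over all genes at 0.05. Somite stage as a block was an alternative. The fit was tested on simulated data. The members, the lists and the tests were chosen with earlier results of these data known. Members described in full are those past the threshold with or without stage, and otherwise up to 4 per phase with the smallest p; up to 4 further genes per list follow the same rule. The other members are given by their values. Shared sequence is the percent of 31-base words of a gene's GENCODE M21 transcripts found in another gene's. Promoters are RefSeq windows of 300 bases, of which the 250 before the start were searched. Libraries are single embryos, so p-values set the genotype difference against the spread between embryos, moderated over all genes. With stage in the model, that spread is only the disagreement between the 2 stage-matched pairs. Each genotype had 2 embryos. Whether counting used strand is not given in the sources used here, and exons of several members, such as Cdk4 and Mcm7, overlap genes on the other strand.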

Additional observations from a re-analysis of the deposited data

Results flagged for a closer look

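The G1 genes had medians of opposite sign at the 2 somite stages: their median log2 difference, knockout minus control, was 0.084 at 40 somites and -0.045 at 39 somites, over 24 genes and with 1 embryo of each genotype at each stage. Over all genes tested the median changed sign as well, at 0.026 at 40 somites and -0.0065 at 39 somites. The difference between stages was not tested.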

How the results depend on the processing

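The count of members called higher was 0 in limma and 0 to 1 with a library left out. It was 1 (Cdkn2c) at a pseudocount of 5, without the variance trend, with a robust variance and at a threshold of 0.1, and 2 (Cdkn2c and Ccnd2) with the replicate block for somite stage, also on TPM rescaled without mitochondrial and globin genes, a combination added after seeing the data. No member was called lower in any of these fits. Of the other cell cycle genes, 2 were called with the block on either scale, 1 at a threshold of 0.1 and 0 to 1 with a library left out. Over all genes 167 were called, 533 with the block, 551 with the block on rescaled TPM, 275 with a robust variance, 316 at a threshold of 0.1, 0 with no filter on low values (2338 at an unadjusted p under 0.05 in limma, where Smarcc1 had a fold of -1.44 and a limma adjusted p of 0.111), and 50 to 646 with a library left out. The block pairs embryos by the somite number in the labels. Deviations from the genotype means at 40 somites correlated across 12809 genes (Pearson 0.250, Spearman 0.364), genes being no independent replicates. The 2 pairs cannot show that stage, rather than sex or embryo, is what they share. Fits without a library leave stage unbalanced and 1 genotype with a single embryo, assumed to vary like the other pair, and the median G1 fold then ran from -0.089 to 0.123. With all 4 libraries in the fit, limma's adjusted p of Cdkn2c reached 0.200 in these settings. The fold of Cdkn2c ran from 0.48 at a pseudocount of 5 to 1.51 at a pseudocount of 0.1, and at the filter of 5 TPM it was not tested. No member past the threshold in any fit changed sign. Among the others, Rbl1 and E2f8 had folds of -0.0045 and -0.012 under median-ratio scaling and -0.0077 and -0.0016 under quantile normalization, where Bub1 had -0.021. With a library left out, 7 to 10 members changed sign in each fit, and their log2 folds had these ranges: Ccnd3 -0.167 to 0.217, Ccne1 -0.030 to 0.182, Cdk4 -0.116 to 0.363, Cdk6 -0.202 to 0.037, Cdkn2d -0.131 to 0.080, Rbl1 -0.025 to 0.045, Rbl2 -0.029 to 0.402, E2f1 -0.065 to 0.167, E2f2 -0.131 to 0.172, E2f4 -0.174 to 0.050, E2f8 -0.046 to 0.048, Mcm3 -0.041 to 0.372, Pcna -0.164 to 0.097, Rrm2 -0.24 to 0.047, Cdt1 -0.245 to 0.0049, Cdk1 -0.047 to 0.101, Aurkb -0.128 to 0.119, Bub1 -0.084 to 0.12, Plk1 -0.209 to 0.099, Cdc20 -0.064 to 0.206. Why these fits differ was not tested.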
